A study of Mus musculus with 2 samples.

Results

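Forkhead (Fox) genes were followed in tissue cut from above and below the dorsal aorta of the mouse embryo. They were taken as every measured gene whose symbol is Fox, 1 letter from a to s and a number, with opposite-strand transcripts left out, which gave 43 of 24675 genes with a symbol. All 43 are protein-coding and fall into 18 lettered subfamilies. The tissue came from C57Bl/6 embryos at embryonic day 10.5 by laser microdissection. The dorsal piece lay between the roof of the aorta and the notochord, and the ventral piece lay under the vessel. Both pieces were cut from the same embryos, whose number and sex the sources used here do not give, and no embryo carried a stated allele or treatment. RNA was read on Affymetrix Mouse Gene 2.0 ST arrays, with 1 array per tissue, each labelled biological replicate 4. Without replicates no error or p-value can be attached to any difference below, and precision is limited by the number of arrays.

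Forkhead factors are transcription factors that bind DNA through a winged-helix domain, the forkhead box. Several act early in mesoderm and endoderm: the FoxA factors open chromatin in endoderm, notochord and floor plate, the FoxC factors pattern paraxial mesoderm and vessels, and the FoxF factors act in the mesenchyme around the gut, where Hedgehog signals turn them on. FoxO factors are held in the cytoplasm by Akt, FoxP factors bind DNA as dimers and recruit repressors, and Foxm1 drives genes of mitosis.

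Values are on the log2 scale. A gene is called at background on an array when its value does not exceed 3.92, the 95th percentile that 1360 receptor genes of smell and pheromone sensing (olfactory and vomeronasal) had when both arrays were pooled. These receptors serve as genes that such tissue is not thought to transcribe, and their 99th percentile was 5.48. Within each array alone their 95th percentile was 4.07 dorsally and 3.83 ventrally. Where the lower of both values was at background, a fold is given as "at least", the higher value against 3.92. In bulk tissue, fewer cells of a type and less RNA per cell cannot be told apart.

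The pieces carried the markers of their positions in part. Of 6 measured sclerotome markers 4 were above background in dorsal and 2 in ventral tissue, with linear values (each log2 value turned back to a plain signal) summing to 389 and 183, and for 5 notochord markers the counts were 5 and 3 and the sums 865 and 423. Cd24a, a surface protein found on many cell types, carried most of both notochord sums at 9.56 dorsally and 8.36 ventrally. Without it they were 108 and 94.3, and Krt18, a keratin, had its higher value ventrally, at 4.27 against 5.17. Pax1, a defining sclerotome gene, was at background on both arrays. Of 6 markers of coelomic epithelium and gonadal ridge none was above background in dorsal and 5 in ventral tissue, with sums of 64.8 and 267. Endothelial markers were above background in 2 of 8 cases in dorsal and 5 of 8 in ventral tissue, with sums of 98.0 and 234, and smooth muscle markers in 2 of 5 and 4 of 5, with sums of 84.7 and 285. Tek and Tie1, receptors that define endothelium, were at background on both arrays. Of markers for other tissue that a cut piece could hold, 1 of 6 for gut endoderm and 1 of 6 for neural tube were above background on each array, 0 of 3 for neural crest, 2 of 5 for liver dorsally and 1 of 5 ventrally, and 4 of 5 for erythroid cells dorsally and 5 of 5 ventrally. Their linear values summed, dorsally and then ventrally, to 67.8 and 59.8 for gut endoderm, 99.3 and 64.5 for neural tube, 32.1 and 25.0 for neural crest, 160 and 55.1 for liver and 11421 and 10647 for erythroid cells. Among them Ttr, a liver transport protein, was 5.93-fold higher dorsally, Tubb3, a neuronal tubulin, 2.21-fold and Klf1, an erythroid factor, 2.14-fold. Each was the only kept gene of its list at least 2-fold apart. The other kept markers, 4 for liver, 1 for neural tube and 4 for erythroid cells, stayed within 2-fold. Ttr carried most of the dorsal liver sum, and 3 of the 5 liver markers were at background on both arrays. The part of these cell types in the differences below was not tested.

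Most Forkhead genes were at background in both tissues. Of the 43, 18 were above background on at least 1 array, 12 of them on both, 4 in dorsal tissue alone and 2 in ventral tissue alone. The 18 are 41.9% of the family, beside 28.7% of all genes. Over all genes, 7092 were above background on an array. Of these, 4752 were so on both, 1213 in dorsal tissue alone and 1127 in ventral tissue alone. The other 25 Forkhead genes were at background on both arrays, and a difference in them was not detectable at this signal. The 99th percentile of the receptor genes was exceeded on at least 1 array by 6 of the 43 members: Foxp4, Foxp1, Foxf2, Foxc2, Foxp2 and Foxn3. Over all genes 2628 exceeded it, or 10.7%. The 18 genes above background came from 11 of the 18 subfamilies, and FoxA, FoxD, FoxE, FoxH, FoxQ, FoxR and FoxS had none.

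**Figure D1:**
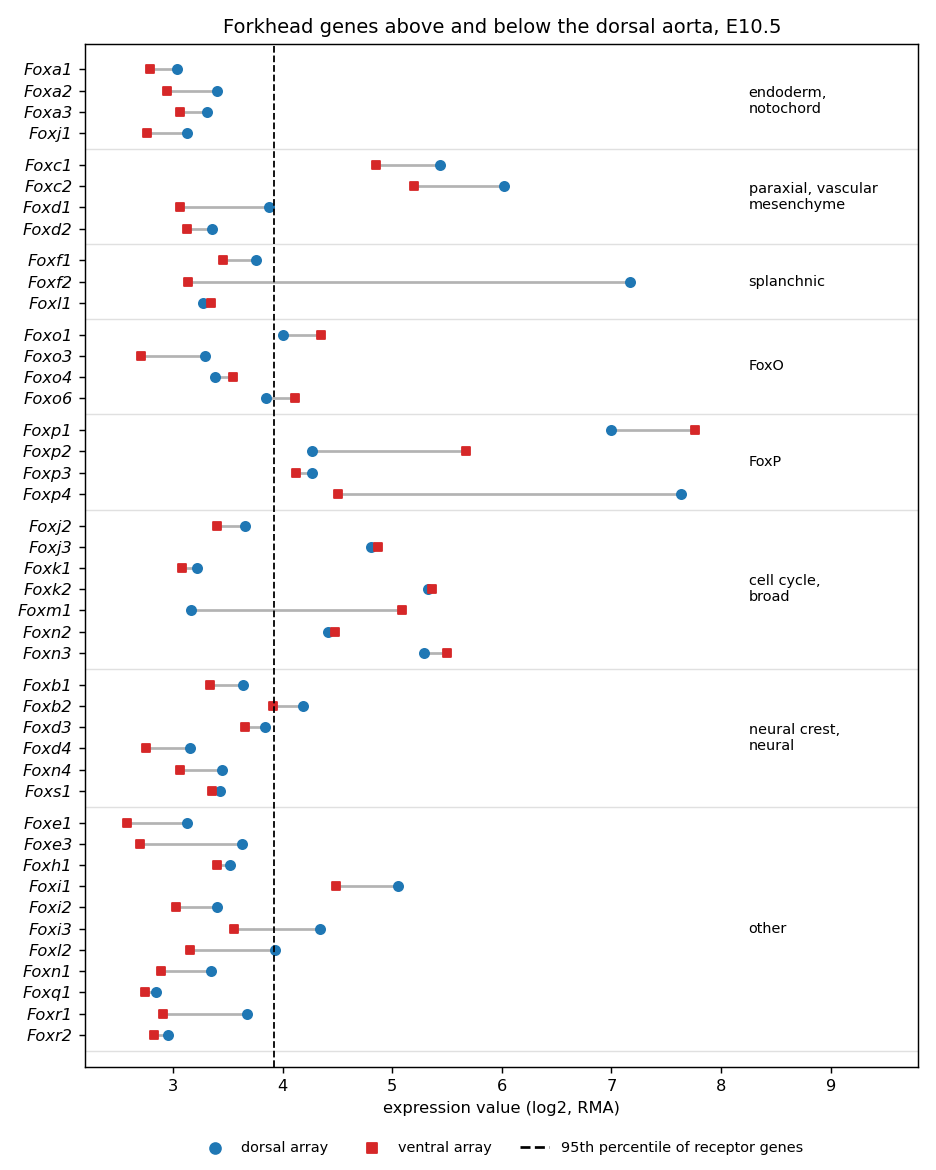
Expression value (log2, after the authors' RMA) of each of 43 Forkhead genes in the dorsal array (circles) and the ventral array (squares), grouped by role. The dashed line is the 95th percentile of the receptor genes, 3.92. Foxf2 and Foxp4 have the widest gaps with the dorsal value higher, Foxm1 and Foxp2 with the ventral value higher, and most pairs lie left of the line.

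A difference between the tissues of at least 2-fold was found in 4 Forkhead genes, Foxf2 and Foxp4 with the higher value in dorsal tissue, Foxm1 and Foxp2 with the higher value in ventral tissue. The count was made over the 40 members whose higher value reached 3.10, the median over all genes of their mean level; Foxa1, Foxq1 and Foxr2 did not reach it. Counts by size here and in the gene lists use the measured values, also where the lower is at background. All 4 Forkhead genes reach 2-fold against 3.92 as well. A floor on the higher value favours genes with a gap. The 2 members higher in dorsal tissue are 5.0% of the 40, where the background over all 13982 genes kept in this way was 4.88%. The 2 higher in ventral tissue are also 5.0%, beside a background of 9.44%, and the 4 together are 10.0%, beside 14.3%. Among genes that passed the mark of background on an array, the 4 were 22.2% of 18 Forkhead genes, beside 26.2% of 7092 genes, of which 17.7% were higher by that size ventrally and 8.46% dorsally. Among the 40 kept members the share of 2-fold differences was thus near the background dorsally and under it ventrally. Of the 18 above background, 2 were higher by that size in each direction, which is 11.1% ventrally. Counts of 2 genes do not set the family apart from all genes.

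**Figure D2:**
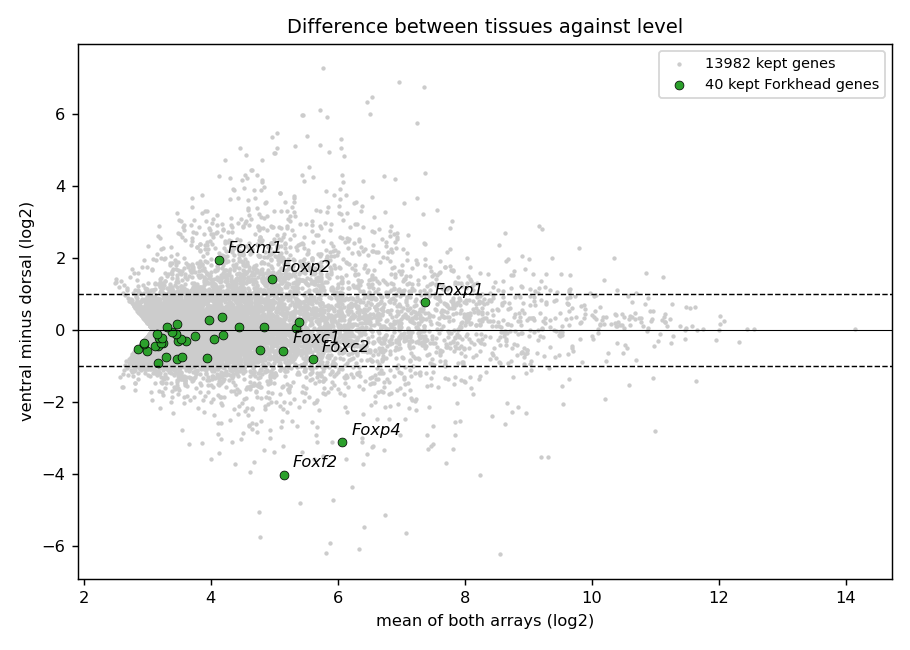
Ventral minus dorsal difference (log2) against the mean of both arrays (log2) for 13982 kept genes (grey) and the 40 kept Forkhead genes (green); dashed lines mark 2-fold. Foxf2 at -4.03 and Foxp4 at -3.13 lie below the lower line, and Foxm1 at 1.93 and Foxp2 at 1.41 above the upper one.

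Foxf2, a forkhead factor of the mesenchyme around the gut and of brain pericytes, was measured at 7.16 dorsally and 3.14 ventrally. The dorsal value was far above background and the ventral value under it, which gives a lower bound of 9.47-fold, written as at least 9.47-fold higher dorsally. Its closest relative, Foxf1, which is needed for the mesenchyme and vessels of the gut and lung, was at background in both tissues at 3.76 and 3.45. Foxl1, another gene of gut mesenchyme, was at background as well, at 3.27 and 3.34. Of these 3 splanchnic Forkhead genes Foxf2 alone was above background, and in dorsal tissue alone. Other markers of splanchnic and gut mesenchyme were spread over both tissues: of 7 measured, 4 were above background in dorsal and 5 in ventral tissue, with linear values summing to 150 and 174. Bmp4, a growth factor and the 1 gene of this list beyond 2-fold, was at 3.83 dorsally and 5.54 ventrally, at least 3.07-fold higher in the latter.

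Foxp4, a broadly expressed FoxP factor of lung, gut and neural tissue, was measured at 7.64 dorsally and 4.50 ventrally. Both values were above background, so the 8.77-fold difference is measured and not a bound. It is the Forkhead gene with the largest fold measured above background on both arrays.

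The sequence before the start sites of both dorsal genes is shown together with that of Foxc1, which lies next to Foxf2 in the family's cluster on chromosome 13. Each is the 250 bases upstream of the start in RefSeq's GRCm38.p6 annotation, 5′ to 3′ on the gene's strand, and the capitals mark CG dinucleotides, whose density defines CpG islands.
Foxf2, chr13:31625566-31625815, plus strand: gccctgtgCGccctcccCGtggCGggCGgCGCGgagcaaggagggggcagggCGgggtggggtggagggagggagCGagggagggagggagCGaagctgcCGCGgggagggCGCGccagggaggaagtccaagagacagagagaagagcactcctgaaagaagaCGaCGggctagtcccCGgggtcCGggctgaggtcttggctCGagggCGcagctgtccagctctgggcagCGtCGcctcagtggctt
Foxp4, chr17:47924633-47924882, minus strand: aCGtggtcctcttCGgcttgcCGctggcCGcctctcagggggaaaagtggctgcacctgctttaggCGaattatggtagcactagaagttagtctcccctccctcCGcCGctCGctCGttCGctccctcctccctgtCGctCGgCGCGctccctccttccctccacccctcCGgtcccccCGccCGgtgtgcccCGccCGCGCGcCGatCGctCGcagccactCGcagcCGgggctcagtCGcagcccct
Foxc1, chr13:31806396-31806645, plus strand: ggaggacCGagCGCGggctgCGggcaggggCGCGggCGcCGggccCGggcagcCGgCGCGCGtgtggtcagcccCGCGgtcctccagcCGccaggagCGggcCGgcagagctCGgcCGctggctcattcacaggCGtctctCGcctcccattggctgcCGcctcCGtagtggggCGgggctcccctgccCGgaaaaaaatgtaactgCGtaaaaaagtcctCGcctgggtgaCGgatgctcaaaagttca
These stretches hold 21 CG pairs in Foxf2, 27 in Foxp4 and 29 in Foxc1, with G and C making up 71.6%, 69.6% and 70.8% of the bases.

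Promoter windows of 300 bases, 250 before to 50 after a start, were found for 28 of the 43 members. Taking the richest window of each gene, the Forkhead genes above background had a median of 31.0 CG pairs (13 genes) and those at background a median of 22 (15 genes). Over all genes with a window the medians were 23 above background and 9.0 at background. The share of genes with at least 20 CG pairs was 60.7% of the 28 Forkhead genes and 38.1% of 18380 genes. Of the 15 Forkhead genes at background 8 had at least 20 pairs: Foxa1, at background on both arrays, had 26 pairs, and Foxo3 had 35. The opposite case was Foxi1, above background on both arrays with 6 pairs. The forkhead binding motif TGTTTAC, searched on both strands, was in the window of Foxa1, that is in 3.57% of the members, beside 4.05% of the 27025 annotated genes with such a window. The Gli motif GACCACCCA, read by the transcription factors of Hedgehog signalling, was in none of the 28 and in 0.289% of those 27025. A match or its lack describes these letters in this window and says nothing of the factor.

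All 4 FoxP genes were above background on both arrays, and they differed in direction. Foxp1, a factor of heart, lung, B cells and neurons, was measured at 6.99 dorsally and 7.77 ventrally, a 1.71-fold difference that stayed within 2-fold. Foxp2, known for its part in speech and in lung and gut development, was at 4.26 dorsally and 5.68 ventrally, 2.66-fold higher ventrally. Foxp3, the regulator of regulatory T cells, was at 4.27 and 4.12, both just above background and within 2-fold. Foxp1 and Foxp2 were thus higher ventrally while Foxp4 was higher dorsally, with differences of 0.77, 1.41 and -3.13. These directions held after quantile normalization of the arrays, after centring the differences and after removing their trend on level.

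The corepressors that FoxP factors recruit were measured alongside. Of 13 kept genes of the NuRD complex and the CtBP proteins, 6 were at least 2-fold higher ventrally and 2 dorsally, with a median difference of 0.33. Over all kept genes the shares were 9.44% and 4.88% and the median -0.12, and these backgrounds are used for each gene list below. They rise with level. Among all genes above background on an array the shares were 17.7% and 8.46%, with a median of 0.03. Among those above the receptor genes' 99th percentile they were 30.1% and 12.7%, with a median of 0.34. Of the 13 corepressors 1 was at background on both arrays. Whether this list exceeds genes of like level was not tested. Against 3.92 in place of a lower value at background, 5 of the 6 reached 2-fold, and Ctbp2 was at least 1.25-fold higher. After quantile normalization the counts were 3 ventrally and 3 dorsally, and after centring 6 and 1. Hdac1, a histone deacetylase, was at 2.87 dorsally and 8.78 ventrally, at least 29.0-fold higher in the latter, and its paralog Hdac2 was at 9.11 and 10.16. Rbbp7, a histone-binding subunit, was 2.63-fold higher ventrally at 7.39 against 8.79. Mbd3, the methyl-binding-domain subunit, went the other way at 6.71 dorsally and 4.99 ventrally, 3.30-fold.

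Foxm1, the forkhead activator of genes needed in G2 and mitosis, was measured at 3.16 dorsally and 5.09 ventrally. The dorsal value was at background, so ventral tissue was at least 2.25-fold higher. Of 19 kept genes among its MuvB and B-Myb partners and mitotic targets, 1 was at least 2-fold higher ventrally, 1 dorsally and 17 within 2-fold. That is a share of 89.5% within 2-fold, beside 85.7% of all kept genes. Of the 21 measured genes of this list 3 were at background on both arrays. Among all genes above background on an array, 26.2% were at least 2-fold apart. The median difference was 0.12 and turned to -0.05 after quantile normalization. The target Ccnb2, a mitotic cyclin, was at 7.64 dorsally and 7.87 ventrally. Plk1, a mitotic kinase and target, was at 6.83 and 6.68. Cenpf, a kinetochore protein, was at 6.01 and 6.78, within 2-fold. The pair of partners beyond 2-fold were MuvB subunits of opposite direction: Lin9 was at 2.91 dorsally and 5.78 ventrally, at least 3.62-fold higher in the latter, and Lin52 at 8.29 and 3.56, at least 20.6-fold higher dorsally.

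The FoxC genes had higher values in dorsal tissue and stayed within 2-fold. Foxc2, a regulator of paraxial mesoderm, arteries and lymphatic vessels, was measured at 6.02 dorsally and 5.20 ventrally, 1.77-fold apart. After quantile normalization its difference was -1.10, past 2-fold. Foxc1, its partner in somites and vessels, was at 5.44 and 4.86, 1.49-fold apart. Both were above background on both arrays, and their direction held under each scaling tried. Foxd1, a marker of kidney stroma, was at 3.88 dorsally and 3.07 ventrally, and Foxd2 at 3.36 and 3.12, all at background.

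Forkhead genes that neighbour each other on a chromosome included members above and at background. On chromosome 13 Foxq1, Foxf2 and Foxc1 follow each other with 4 other annotated genes between them. Foxq1, a gene of epithelia and hair, was at background at 2.84 and 2.75, while Foxf2 and Foxc1 had the values given above, with differences of -4.03 and -0.58. On chromosome 8 Foxf1, Foxc2 and Foxl1 are neighbours with 1 other gene, Mthfsd, among them, and Foxc2 alone of these 3 Forkhead genes was above background. In each cluster the FoxC gene was above background on both arrays, and of the FoxF genes Foxf2 was above background in dorsal tissue and Foxf1 in neither.

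The FoxA genes and Foxj1, which mark endoderm, notochord, floor plate and ciliated cells, were all at background. Foxa2, a defining gene of notochord and floor plate, was at 3.41 dorsally and 2.94 ventrally. Foxa1 was at 3.04 and 2.79, Foxa3 at 3.31 and 3.07, and Foxj1, the switch for motile cilia, at 3.13 and 2.76. The dorsal piece was cut next to the notochord. Of other notochord genes, Shh and Noto were above background there, at 5.12 and 4.24. Krt8, a keratin at 5.14 dorsally and 5.09 ventrally, and Krt18, at 4.27 and 5.17, were above background in both tissues. Of 17 measured genes of motile cilia 14 were at background on both arrays, and of 7 kept none was 2-fold apart.

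Hedgehog genes, which act upstream of Foxf1, Foxf2, Foxl1, Foxc2 and Foxa2, were mixed. Of 11 kept, 3 were at least 2-fold higher dorsally and 1 ventrally, beside 4.88% and 9.44% of all kept genes, with a median difference of -0.27 against -0.12. Ptch1, the receptor and target, was at 8.16 dorsally and 4.94 ventrally, 9.32-fold apart, and the ligand Ihh was 3.03-fold apart at 5.60 and 4.00. The other such gene was Shh, at least 2.29-fold higher dorsally. Gli3, mainly a repressor of the pathway, was 3.48-fold higher ventrally, at 4.52 against 6.32. Gli1, a target, did not pass the mark of background, at 3.82 and 3.39.

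FoxO genes were near background and within 2-fold. Foxo1, which is needed for vessels of the embryo, was above background on both arrays at 4.00 dorsally and 4.35 ventrally. Its dorsal value was under the 95th percentile of the dorsal array alone, 4.07. Foxo6, a neural member, was at 3.85 and 4.11, above background in ventral tissue alone. Foxo3, a regulator of stem cell quiescence, was at 3.29 and 2.71, and Foxo4 at 3.39 and 3.55, all at background. Of 15 kept kinases, 14-3-3 proteins and other regulators of FoxO factors, 1 was at least 2-fold higher in each tissue, beside 9.44% of all kept genes ventrally and 4.88% dorsally. The median difference was -0.06 and changed sign between the scalings tried, from -0.35 to 0.06. Pik3ca, the catalytic subunit of phosphoinositide 3-kinase, was at 3.91 dorsally and 5.08 ventrally, at least 2.24-fold apart, and Ywhag, a 14-3-3 protein, was at 6.76 and 5.44, 2.49-fold higher dorsally. Among 14 kept FoxO target genes there was likewise 1 in each direction, with a median of 0.09. Gadd45a, a stress-response gene, was 2.29-fold higher dorsally at 6.18 against 4.99, and Sod2, the mitochondrial superoxide dismutase, was at least 1.5-fold higher ventrally at 3.47 against 4.51. Sod2 thus counts as 2-fold apart on its measured values and not against the mark of background.

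Broadly expressed members other than Foxm1 lay within 2-fold. Foxk2, a repressor of autophagy and metabolic genes, was at 5.32 dorsally and 5.37 ventrally. Foxn3, a checkpoint repressor, was at 5.29 and 5.50, Foxn2 at 4.41 and 4.48, and Foxj3 at 4.81 and 4.87. These 4 were above background on both arrays and within 1.16-fold, with the ventral value higher; each turned to a higher dorsal value after quantile normalization, so no direction is given. Foxk1 was at background at 3.21 and 3.08, and Foxj2 at 3.65 and 3.41. Of 10 kept partners of the Foxk factors 3 were at least 2-fold higher ventrally and none dorsally, beside 9.44% and 4.88% of all kept genes, with a median of 0.67. The largest of these differences was that of Ogt, the enzyme that adds N-acetylglucosamine to nuclear proteins, at 6.12 against 7.67, 2.92-fold. Hcfc1 at 2.54-fold and Sin3a at 2.12-fold followed. Ventrally these genes and Asxl1, Asxl2 and Dvl3 exceeded the receptor genes' 99th percentile. Among all genes above that percentile on an array, 30.1% were at least 2-fold higher ventrally and 12.7% dorsally, with a median of 0.34. Whether the Foxk partners exceed genes of like level was not tested.

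**Figure D3:**
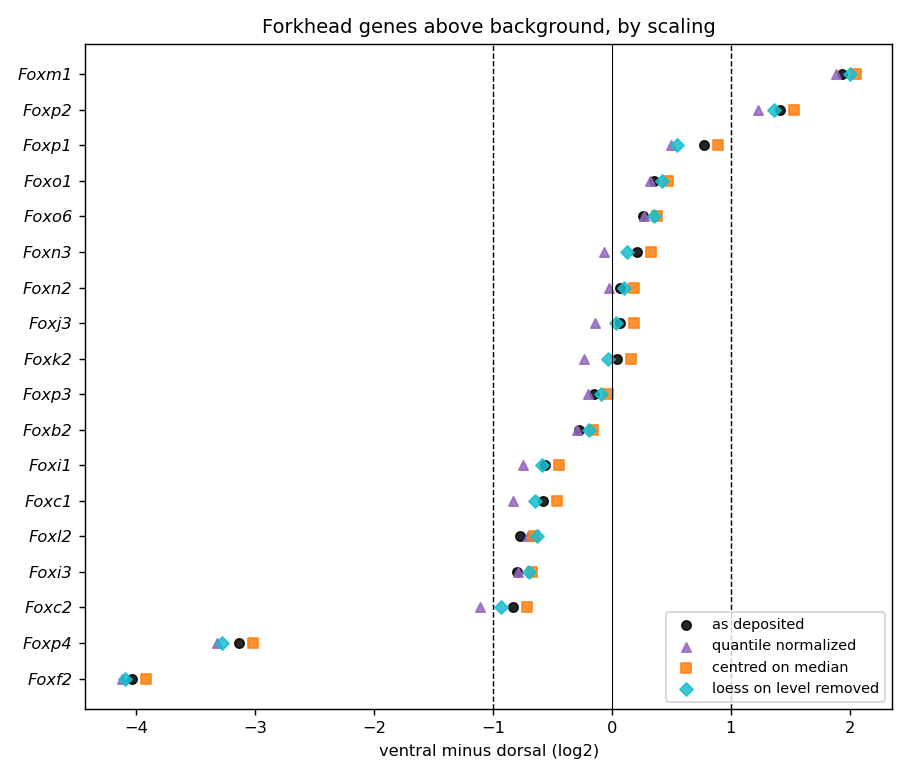
Ventral minus dorsal difference (log2) of the 18 Forkhead genes above background on at least 1 array, as deposited and under 3 other scalings; dashed lines mark 2-fold. Foxf2, Foxp4, Foxm1 and Foxp2 stay beyond the lines under each scaling, Foxc2 crosses one after quantile normalization at -1.10, and Foxn3, Foxn2, Foxj3 and Foxk2 change sign.

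Members known from placodes, epithelia, gonad and the nervous system were mostly at background. Foxi1, a factor of ionocytes in ear and kidney, was an exception at 5.05 dorsally and 4.49 ventrally, above background on both arrays and 1.48-fold apart. Foxi3, a placode gene, was above background in dorsal tissue alone at 4.35 against 3.55, at least 1.34-fold. Foxl2, the ovarian regulator, barely passed the mark of background in dorsal tissue, at 3.93 against 3.16. Foxb2, a neural gene, was at 4.19 and 3.92, the ventral value just under the mark. Foxd3, a defining factor of neural crest, was at background at 3.84 and 3.65, and Foxs1, of crest-derived neurons and pericytes, at 3.43 and 3.36. Foxh1, the Smad partner in Nodal signalling, was also at background at 3.52 and 3.40. Of 10 kept Foxh1 partners and Nodal genes, Smad2 was the 1 at least 2-fold apart, 7.66-fold higher ventrally at 4.83 against 7.77; 2 genes passed that size after centring or after removing the trend on level. The remaining members, Foxb1, Foxd4, Foxe1, Foxe3, Foxi2, Foxn1, Foxn4, Foxr1 and Foxr2, were at background in both tissues, with the widest gap in Foxe3, a lens gene, at 3.63 and 2.70.

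Groucho corepressors of the TLE group, which several Forkhead factors bind, were measured as well. Dorsally 2 of the 5 kept genes were higher by at least 2-fold and ventrally none, beside 4.88% and 9.44% of all kept genes, with a median difference of -0.28. Tle5, a short member that antagonises the others, was at 9.15 dorsally and 3.68 ventrally, at least 37.5-fold apart. Tle1 was at 5.96 and 3.36, at least 4.12-fold. Tle3, at 4.53 and 5.12, and Tle4, at 3.61 and 4.48, had the higher value in ventral tissue and were within 2-fold.

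**Figure D4:**
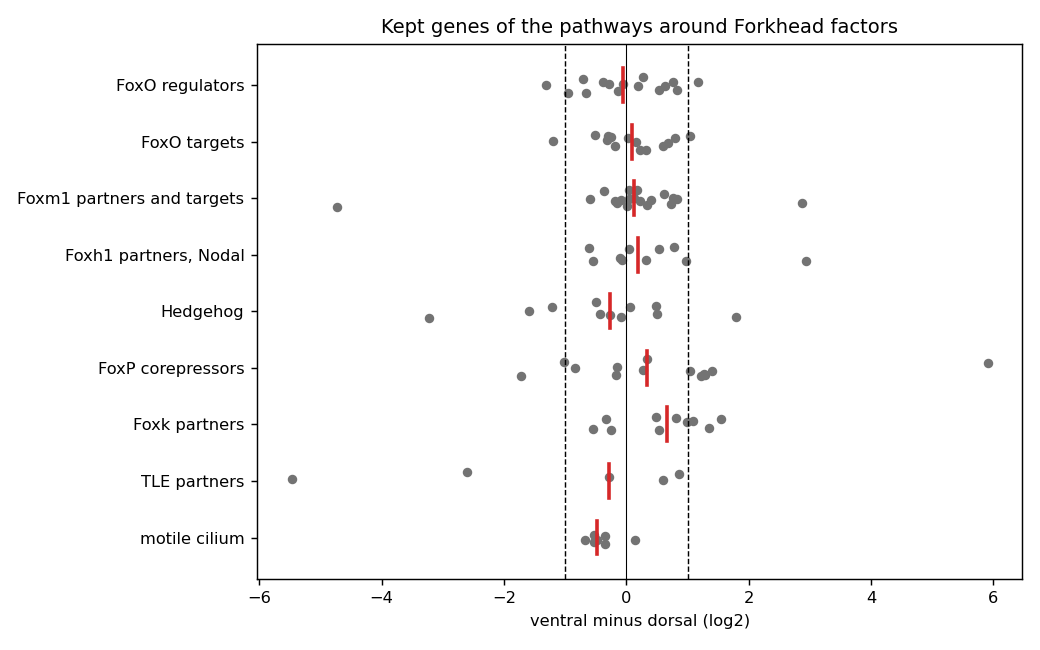
Ventral minus dorsal difference (log2) of each kept gene (grey points) in 9 lists of regulators, partners and targets of Forkhead factors; red bars are list medians and dashed lines mark 2-fold. The medians run from -0.48 for motile cilium genes to 0.67 for Foxk partners, and single genes such as Tle5, Lin52 and Hdac1 lie far outside.

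Across the family the median difference of the 40 kept members was -0.29, beside -0.12 for all kept genes, and 29 of the 40, or 72.5%, had the higher value in dorsal tissue, beside 58.6% of all kept genes. By role the median differences were -0.70 for mesenchymal FoxC and FoxD genes, -0.30 for splanchnic genes, -0.37 for endoderm and notochord genes and -0.29 for neural genes. They were 0.21 for FoxO genes, 0.31 for FoxP genes, 0.07 for broadly expressed genes, which turned to -0.06 after quantile normalization, and -0.56 for the placode, epithelial and gonadal remainder. Several of these medians rest on genes at background on both arrays. That holds for all 4 endoderm and notochord genes, 5 of 6 neural genes and 8 of 11 in the remainder. It also holds for 2 of 3 splanchnic genes, 2 of 4 FoxC and FoxD genes and 2 of 4 FoxO genes. Members above and at background are given apart. Among the 18 above background 9 were higher in each tissue, with a median of -0.05, beside 0.03 for all genes above background. Among the 25 at background 23, or 92.0%, had the higher value in dorsal tissue, with a median of -0.30, beside 69.1% and -0.12 for all genes at background. The receptor genes, too, leaned that way, with 67.2% of them higher in the dorsal array and a median of -0.10. Differences in members at background carry no direction here.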

How the data were processed

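Each array's deposited column holds log2 expression, with 1 value for a gene. The authors' software was Affymetrix Expression Console with RMA, per the submitters' processing notes; no version, genome build or set of jointly normalized arrays is given in the sources used here. Per the labels' protocols, 200 to 1000 pg of total RNA was amplified before hybridisation, which can lose or favour transcripts at random. Of 25429 features, 754 had no symbol and were left out; each of the 43 Forkhead symbols was matched by gene number to RefSeq's GRCm38.p6 table. The members, the 28 gene lists and the receptor reference were chosen with earlier results of these data known. Named were members above background, 2-fold apart or in the main subfamilies, and up to 4 list genes at least 2-fold apart. Cd24a, Krt8, Krt18, Ttr, Tubb3, Klf1, Bmp4, Ccnb2, Plk1, Cenpf, Hdac2, Noto, Gli1, Tle3, Tle4, Pax1, Tek and Tie1 were added to illustrate a level, after their values were seen. Asxl1, Asxl2 and Dvl3, all within 2-fold, were likewise added for their ventral level. Differences are ventral minus dorsal, counted by size with no test, and the steps were tested on simulated data. Alternatives were a loess on level (span 0.3), quantile normalization, centring, and other floors, folds and marks of background. A planned comparison of protein sequences was not run. Python 3.11.15, numpy 2.4.6, pandas 2.3.3, statsmodels 0.14.6 and matplotlib 3.10.9 were used.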

Additional observations from a re-analysis of the deposited data

How the results depend on the processing

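The counts of Forkhead genes at least 2-fold apart, 2 in each direction, did not move by more than 1.5 times under centring, loess or no floor, nor with the floor at the receptor genes' 95th percentile. The dorsal count was 3 of 37 kept members after quantile normalization, which added Foxc2, beside 5.79% of all kept genes. With the fold threshold at 1.5 it was 8 of 40, and the ventral count was 3. Over all kept genes the shares at that threshold were 15.0% dorsally and 16.3% ventrally. Of the 8, Foxe3, Foxd1 and Foxr1 were at background on both arrays. The ventral count was 1 of 6 with the floor at the 99th percentile, where Foxm1 was lost, beside 30.1% of all genes kept there. It was 1 of 40 with the fold threshold at 3, where Foxp2 was lost, beside 4.48% of all kept genes. With the 99th percentile as the mark of background, 6 of the 43 members in place of 18 were above it, beside 10.7% of all genes. With the 95th percentile of each array alone, 4.07 dorsally and 3.83 ventrally, the count was 17. By those marks Foxo1 at 4.00 and Foxl2 at 3.93 were at background dorsally, and Foxb2 at 3.92 was above it ventrally. Of the 43 differences, 33 kept their sign under every scaling and 10 did not; of the 18 genes above background, 4 did not. No median of the 28 lists shifted by more than 0.43 on the log2 scale under another scaling, but 5 changed sign: broadly expressed members, FoxO regulators, Foxm1 partners, and markers of splanchnic mesenchyme and of erythroid cells. Of 54 pathway counts 5 moved by more than 1.5 times: the FoxO regulators higher in dorsal tissue numbered 2 after quantile normalization, the Foxh1 partners higher in ventral tissue 2 after centring and 2 after loess, and the FoxP corepressors 3 in ventral tissue after quantile normalization and 1 in dorsal tissue after centring. The cause of these changes was not tested. The arrays form only 1 pair, so no spread among pairs could be estimated, and with 1 array per tissue no array could be left out. Signal over background limits the 25 members at background.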

Other observations

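Opposite-strand and neighbouring transcripts of the Forkhead genes were measured too and enter none of the counts. Foxd2os, which lies between Foxd2 and Foxe3 on chromosome 4, was at 5.26 in dorsal and 7.09 in ventral tissue, 3.56-fold higher in the latter, whereas Foxd2, at 3.36 and 3.12, and Foxe3, at 3.63 and 2.70, were at background on both arrays. Fendrr, the long noncoding neighbour of Foxf1, was at background like that gene, at 3.83 and 3.19. Foxo6os, at 3.03 and 3.22, and Foxl2os, at 3.11 and 2.85, were at background as well. Of the protein-coding neighbours, Gmds, next to Foxc1, was at 3.79 dorsally and 4.81 ventrally, at least 1.86-fold higher in the latter, and Mthfsd was at 3.98 and 4.06. These features were picked for their position beside members, and each value comes from 1 array.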
